A study of Mus musculus with 6 samples.

Results

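The cell cycle genes analysed were 42 genes fixed by name: 6 G1 cyclins and Myc, 3 kinases of G1 and S phase, 4 inhibitors of cyclin-dependent kinases (CDKs), 3 CDC25 phosphatases, 13 replication genes and 13 mitosis genes. Each of the 42 had exactly 1 named row among the 41386 genes of the table. RNA-seq counts came from the hippocampus of C57BL/6 mice (C57BL/6J in the study's methods), 56 days old and, per those methods, male. In the ischemia/reperfusion (I/R) group, focal middle cerebral artery occlusion lasted 1.5 h and was followed by 24 h of reperfusion; sham mice had the operation without the filament that blocks the vessel, and isoflurane anaesthesia was common to both groups. There were 3 libraries per group, and the methods describe pools of several ipsilateral hippocampi, so each p-value refers to the spread of pools and not of single mice.

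A cell enters the cycle when Myc and the D-type cyclins, which activate CDK4 and CDK6, push it through G1. Cyclin E with CDK2 then opens S phase, in which licensing factors load the MCM helicase onto origins and DNA is copied, and cyclin B with CDK1 drives mitosis. In the adult hippocampus most neurons have left the cycle for good, dividing progenitors lie in the dentate gyrus, and glia, endothelium and entering blood cells can divide after injury. Replication genes are classic targets of E2F factors, and many mitosis genes carry a cell cycle homology region (CHR) near the start of transcription.

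To show these elements, the 180 bases before the start site are printed for 3 replication genes with E2F letters and 3 mitosis genes with CHR letters, as given by RefSeq on GRCm38.p6, 5′ to 3′ in the direction of the gene. Capitals mark the searched letters, read on either strand. Of the replication genes, Cdc6 and Mcm5 rose after I/R and Mcm6, whose window holds 3 matches, did not pass the test. The windows are chr11:98907971-98908150 on the plus strand, chr8:75109329-75109508 on the plus strand and chr1:128359706-128359885 on the minus strand. In Mcm5 and in the first stretch of Mcm6, matches on opposite strands overlap.
Cdc6: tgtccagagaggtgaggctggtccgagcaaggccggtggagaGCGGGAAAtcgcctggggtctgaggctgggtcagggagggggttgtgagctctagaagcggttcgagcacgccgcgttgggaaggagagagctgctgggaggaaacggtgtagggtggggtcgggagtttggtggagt
Mcm5: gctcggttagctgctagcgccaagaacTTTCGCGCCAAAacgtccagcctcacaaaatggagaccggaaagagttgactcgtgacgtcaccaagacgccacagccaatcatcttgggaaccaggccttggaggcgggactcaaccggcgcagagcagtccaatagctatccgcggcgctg
Mcm6: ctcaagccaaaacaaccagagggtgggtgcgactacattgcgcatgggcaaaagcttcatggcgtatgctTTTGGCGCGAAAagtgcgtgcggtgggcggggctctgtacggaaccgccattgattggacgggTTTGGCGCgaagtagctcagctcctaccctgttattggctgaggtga
Of the mitosis genes, Cdc20 rose, whereas Mki67 and Top2a, the usual markers of dividing cells, did not pass the test. Their windows are chr4:118437344-118437523 on the minus strand, chr7:135716380-135716559 on the minus strand and chr11:99024190-99024369 on the minus strand.
Cdc20: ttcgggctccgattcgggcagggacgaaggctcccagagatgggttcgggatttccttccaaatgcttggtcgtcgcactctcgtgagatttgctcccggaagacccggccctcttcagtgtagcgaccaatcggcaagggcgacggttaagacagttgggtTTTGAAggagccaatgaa
Mki67: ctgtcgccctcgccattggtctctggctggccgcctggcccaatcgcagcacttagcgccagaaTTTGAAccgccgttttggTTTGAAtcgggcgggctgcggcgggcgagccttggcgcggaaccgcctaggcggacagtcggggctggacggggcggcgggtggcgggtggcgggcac
Top2a: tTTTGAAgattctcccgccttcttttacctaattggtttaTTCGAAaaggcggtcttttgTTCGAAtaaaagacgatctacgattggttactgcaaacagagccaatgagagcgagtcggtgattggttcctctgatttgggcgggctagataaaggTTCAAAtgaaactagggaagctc

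A library held 37527226 to 39553637 counts in the I/R group and 37493042 to 44788547 in the sham group. Counts were compared by edgeR's quasi-likelihood test after TMM scaling (trimmed mean of M-values), and a gene was called at a Benjamini-Hochberg adjusted p under 0.05 over all 18569 genes tested and a fold change over 1.2. Levels are CPM, the count scaled to the TMM-adjusted library size, and FPKM where genes are compared per length. The deposited FPKM of a member was 1 to 3.86 times the value its count and the table's length column give, within 5% of it in 10 of 42 genes, so a shorter length was used for the others and levels between genes depend on it. The median log2 fold change of all genes was 0.03 under TMM and 0.28 when scaled by library size only, and directions below are relative to TMM. An exact two-sided permutation test of 3 libraries against 3 cannot give a p under 0.1, so it could not reach 0.05 for any gene. Markers of hippocampal neurons were present: the summed level of 6 dentate granule cell markers was 510 to 557 CPM in sham. The choroid plexus transcript Ttr had counts of 68521, 138610 and 810 after I/R (replicates 1, 2 and 3), against 385, 101015 and 140679 in sham, so I/R replicate 3 and sham replicate 1 stood apart from the others.

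After I/R, 17 of the 40 cell cycle genes tested were higher (42.5%, where 21.8% of all genes tested were higher) and 3 were lower (7.5%, where 19.9% of all genes were lower). Cdkn3 and Bub1 had too few counts to be tested. The 3 I/R libraries lay above the 3 sham libraries in 20 of the 40 genes (50%, against 29.3% of all genes) and below them in 5 (12.5%, against 28.1%), while 57.4% of all genes did not overlap in either direction. With library size only, 20 members were higher and 0 lower, where 34.1% of all genes were higher and 10.9% lower. A rise of over 2-fold was called in 10 of the 40 members tested, beside 1893 of the 18569 genes tested (10.2%). The median log2 fold change of the 40 was 0.66. Ccnb1, Cdk1 and Cdc25c passed the filter on low counts through their I/R libraries and not through their sham libraries. Of the 36 members that passed it in sham, 16 were higher, and the share among all genes that passed it in sham was not counted. Without I/R replicate 3 and sham replicate 1, the libraries with little Ttr, 14 members were higher and 1, Ccnd2, was lower. Mcm5, Ccnb1, Aurka, Cdkn1b and Cdc25b lost their calls in that fit. Calls over all genes, in either direction, also went down in it, from 7756 to 5255. With log2 CPM of Ttr as a covariate and all 6 libraries kept, 17 members were higher and 3 lower, and 7283 genes were called.

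By role, replication genes had 8 of 13 higher (61.5%, beside 21.8% of all genes) and 0 lower, with a median log2 fold change of 0.75. Mitosis genes had 3 of 12 tested higher (25%, near the share of all genes) and 0 lower, with a median of 0.52. Of these 12, Ccnb1 (called higher) and Cdk1 (not called) passed the count filter only through their I/R libraries. The count and the median thus include genes kept because they were high in I/R. Without a count filter 2 mitosis genes were higher, and Ccnb1 was not called (edgeR adjusted p of 0.0721). For both roles the edgeR count of 0 lower was also 0 at an unadjusted p under 0.05 and with DESeq2's Wald test. The G1 cyclins and Myc had 2 of 6 higher and 1 lower, with a median of 0.04. The kinases of G1 and S phase had 3 of 3 higher, with a median of 1.11. The difference between roles was not tested, and the precision behind them was unequal: the mean count of a mitosis gene was 7.33 to 120, with 10 of 13 under 100, and that of a replication gene was 50.3 to 3242, with 2 of 13 under 100. The median standard error (SE) on the log2 scale was 0.36 for mitosis genes and 0.19 for replication genes.

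**Figure D1:**
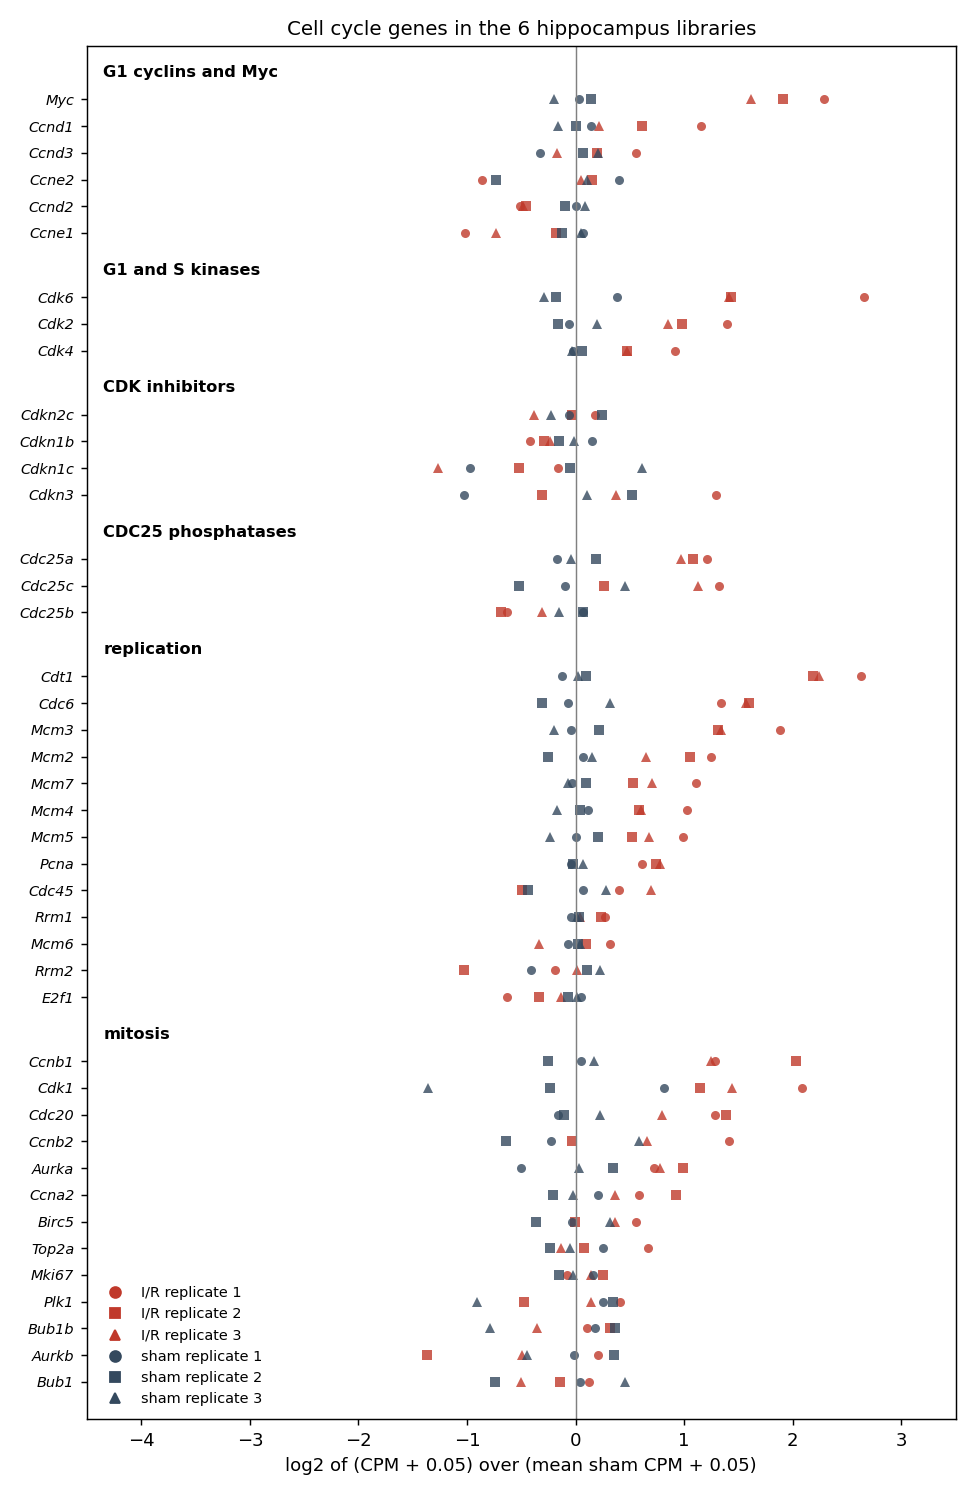
Each point is 1 library and each line 1 of the 42 cell cycle genes, grouped by role; the x axis is the log2 ratio of CPM to the mean sham CPM, with 0.05 CPM added to both. Red I/R points lie to the right of all sham points in 20 genes and to the left of them in 5, and the spread is widest among the mitosis genes.

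Among the G1 cyclins and Myc, the changes went in both directions. Myc, the transcription factor that drives growth and entry into the cycle (chromosome 15, 59115176 to 59121561; here and below on the BALB/cJ assembly of the table), had 34.3, 26.4 and 21.6 CPM in I/R replicates 1, 2 and 3 and 7.15, 7.73 and 6.1 CPM in sham. The lowest I/R library was thus well above the highest sham library. This was a 3.92-fold rise, or 1.97 ± 0.19 on the log2 scale (SE, adjusted p 0.000472, edgeR).

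The D-type cyclins, the partners of CDK4 and CDK6, split. Ccnd1 (chromosome 7, 145720153 to 145730078) had 106, 72.7 and 55.2 CPM in I/R and 52.5, 47.5 and 42.5 CPM in sham. The groups did not overlap, but the lowest I/R and the highest sham library were close and I/R replicate 1 stood highest. Ccnd1 rose with a log2 change of 0.72 (SE 0.22 and adjusted p 0.0311, edgeR). Without I/R replicate 1 this was 0.43 (edgeR adjusted p of 0.0133), and the call was lost without I/R replicate 2 or without any single sham library (edgeR adjusted p of 0.0596 to 0.11).

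Ccnd2 (chromosome 6, 125203295 to 125230431) went the other way, with 67.1, 69.8 and 68.4 CPM in I/R and 96.1, 89.7 and 102 CPM in sham. All I/R libraries were below all sham libraries, and the I/R values were within a narrow range. Its log2 fold change of -0.49 (SE 0.08 and adjusted p 0.00274, edgeR) was -0.23 when scaled by library size only, a fold change under the limit of 1.2, which ended the call. Ccnd3 had 38.6, 30 and 23.3 CPM in I/R and 20.9, 27.5 and 30.3 CPM in sham. Its groups overlapped, and the interval of its log2 fold change was -0.24 to 0.70 (95%).

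The balance of Ccnd1 and Ccnd2 also differed between groups within each library, where scaling plays no part. The shares of a library add up to the whole, so a rise of Ccnd1 alone would lower the share of Ccnd2. A lower share therefore does not by itself show a fall of Ccnd2. Per length, Ccnd1 made up 39.3%, 32.6% and 29% of the summed D-type cyclin FPKM in I/R against 24.1%, 21.8% and 18.1% in sham. Ccnd2 made up 31.8%, 40.2% and 46.2% in I/R against 56.6%, 52.7% and 55.8% in sham. Neither share overlapped between groups, while the share of Ccnd3 did. These shares were among 17 shares and ratios chosen after the values were seen; the exact two-sided permutation p of each D-type share was 0.1 for Ccnd1 and Ccnd2, the smallest possible, and 0.3 for Ccnd3. With the length column in place of the FPKM lengths, an alternative also added after seeing the data, Ccnd1 made up 46.7% to 58% in I/R against 32.2% to 40.5% in sham and Ccnd2 21.6% to 34.2% against 41.7% to 45.6%, so the levels of the shares moved and the lack of overlap did not.

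The E-type cyclins, which activate CDK2 at the entry to S phase, showed no rise. Ccne1 had 6.72, 12 and 8.2 CPM in I/R and 14.3, 12.5 and 14.1 CPM in sham. All I/R libraries lay below sham, and the log2 fold change of -0.60 (SE 0.21) just missed the threshold (edgeR adjusted p of 0.0535). Without I/R replicate 1 it was -0.43 and without I/R replicate 2 it was -0.89, and both passed (edgeR adjusted p of 0.0433 and 0.0103). Ccne1 was also called lower without a count filter (edgeR adjusted p of 0.0325) and with DESeq2's Wald test (adjusted p of 0.0218). Ccne2 had 3.23 to 6.6 CPM in I/R and 3.54 to 7.84 CPM in sham, and its direction turned between settings.

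The 3 kinases that G1 and S phase cyclins activate rose together. Cdk4 had 75.6, 55.5 and 55.5 CPM in I/R and 39.2, 41.6 and 39.1 CPM in sham, a log2 change of 0.64 (SE 0.13 and adjusted p 0.00679, edgeR). Cdk6 had 5.03, 2.13 and 2.1 CPM in I/R and 0.999, 0.664 and 0.61 CPM in sham, a log2 change of 2.02 (SE 0.43 and adjusted p 0.00739, edgeR). Cdk2 had 8.46, 6.33 and 5.8 CPM in I/R and 3.05, 2.85 and 3.66 CPM in sham, a log2 change of 1.11 (SE 0.21 and adjusted p 0.00477, edgeR). In each of them I/R replicate 1 was the highest library and no I/R library reached down to sham. Per length, Cdk4 remained the more abundant G1 kinase, with 63.7 ± 15.1 FPKM in I/R against 2.41 ± 1.44 FPKM for Cdk6 (SD, n = 3), or 33.3 against 1.29 by the length column. Cdk4 overlaps Tspan31 on the opposite strand, and the strand setting of the counting is not stated, so reads of the pair cannot be told apart. Counts of Tspan31 were 1671 to 2619 in the I/R libraries, against 1175 to 1414 in sham. The same limit holds for Ccnd1 and Oraov1, Ccnd2 and 9330179D12Rik, Ccnd3 and Bysl, Ccne2 and Ints8, Cdc25c and Gm3550, Cdc45 and Ufd1l, Mcm7 and Cops6, and Ccna2 and Exosc9.

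**Figure D2:**
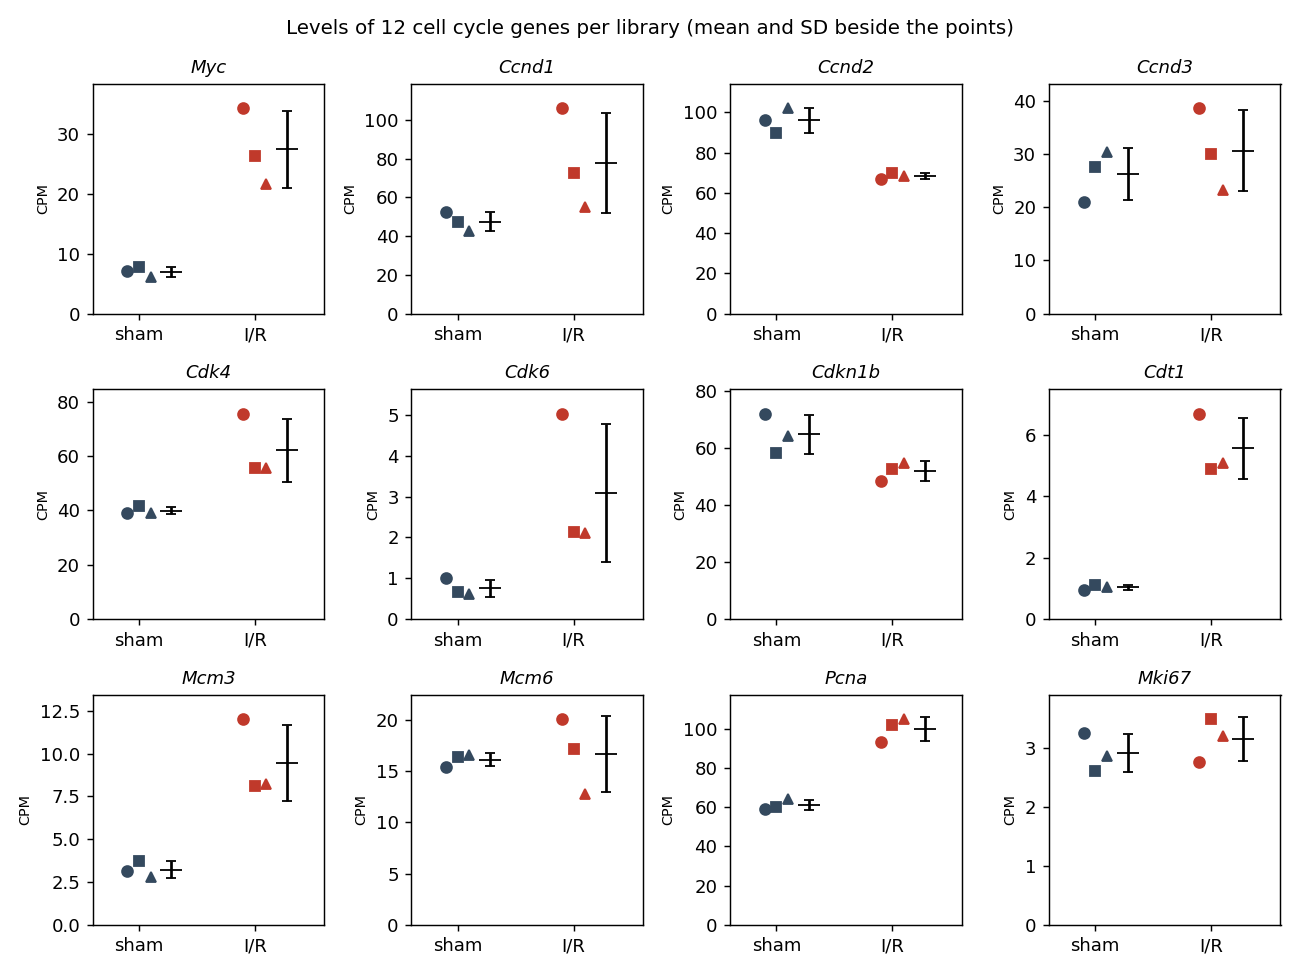
CPM of 12 cell cycle genes per library in sham (blue) and I/R (red), with circles, squares and triangles for replicates 1, 2 and 3 and the mean and SD of 3 libraries beside them; each y axis starts at 0. Myc, Ccnd1, Cdk4, Cdk6, Cdt1, Mcm3 and Pcna are higher in every I/R library, Ccnd2 and Cdkn1b are lower in every I/R library, and Ccnd3, Mcm6 and Mki67 overlap.

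Among the CDK inhibitors, which hold the kinases in check, only Cdkn1b was called. Cdkn1b, which encodes p27 (chromosome 6, 133570239 to 133575499), had 48.2, 52.7 and 54.8 CPM in I/R and 71.9, 58 and 64.1 CPM in sham. The I/R libraries were all lower, by little: the log2 fold change was -0.32 (SE 0.10 and adjusted p 0.0398, edgeR). With library size only it was -0.07, and the call was lost there and when I/R replicate 2, sham replicate 1 or sham replicate 3 was left out (edgeR adjusted p of 0.0785 to 0.626). Cdkn1c, which encodes p57, had 10.7, 8.33 and 4.95 CPM in I/R and 6.07, 11.6 and 18.3 CPM in sham. Its lowest library in each group was the library with little Ttr; the part of the choroid plexus in its levels was not tested, and its log2 fold change had a 95% interval of -1.52 to 0.36. Cdkn2c, which encodes p18, had 2.8 to 4.17 CPM in I/R and 3.14 to 4.36 CPM in sham. Cdkn3, a phosphatase that acts on CDKs, had counts of 3 to 15 in the I/R libraries, against 1 to 7 in sham.

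The CDC25 phosphatases, which remove the inhibitory phosphates from CDKs, moved apart. Cdc25a, which acts at the entry to S phase, had 15.5, 14.2 and 13.1 CPM in I/R and 5.94, 7.6 and 6.48 CPM in sham. Cdc25b, which acts before mitosis, had 7.58, 7.3 and 9.5 CPM in I/R and 12.4, 12.4 and 10.6 CPM in sham. Neither gene overlapped between groups. The log2 fold change was 1.10 for Cdc25a (SE 0.15 and adjusted p 0.00134, edgeR) and -0.54 for Cdc25b (SE 0.15 and adjusted p 0.0247, edgeR). The fall of Cdc25b lost its call with library size only, where it was -0.28 (edgeR adjusted p of 0.166), and without I/R replicate 2, sham replicate 1 or sham replicate 2 (edgeR adjusted p of 0.0735 to 0.0858). Cdc25a made up 46.7% to 56% of the summed CDC25 FPKM in I/R against 24% to 28.9% in sham, a share chosen after the values were seen. This share does not by itself show a fall of Cdc25b, since the shares add up to the whole. Counts of Cdc25c, which also acts before mitosis, were 15 to 38 in the I/R libraries, against 8 to 15 in sham.

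Replication genes held the largest rise of all members. Cdt1, the factor that loads the MCM helicase onto origins (chromosome 8, 121096697 to 121101810), had 6.68, 4.9 and 5.08 CPM in I/R and 0.948, 1.11 and 1.05 CPM in sham. The groups were far apart, and the log2 fold change was 2.42 ± 0.22 (SE, adjusted p 0.000408, edgeR). Cdc6, its partner in licensing, had 1.65, 1.98 and 1.95 CPM in I/R and 0.589, 0.492 and 0.785 CPM in sham. Its log2 fold change was 1.58 (SE 0.30 and adjusted p 0.00488, edgeR), again with no overlap. Cdc45, which joins the helicase when replication fires, had 1.65 to 3.83 CPM in I/R and 1.72 to 2.85 CPM in sham.

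Of the 6 subunits of the MCM helicase, 5 rose. Mcm3 rose most, with 12, 8.08 and 8.23 CPM in I/R and 3.12, 3.74 and 2.79 CPM in sham, a log2 change of 1.55 (SE 0.22 and adjusted p 0.00157, edgeR). Mcm2 had 14.5, 12.6 and 9.5 CPM in I/R and 6.35, 5.09 and 6.74 CPM in sham, a log2 change of 1.01 (SE 0.20 and adjusted p 0.00529, edgeR). In these and the next 3 subunits the groups did not overlap, and I/R replicate 1 was the highest library. Mcm4 had 21.2, 15.6 and 15.8 CPM in I/R and 11.2, 10.7 and 9.21 CPM in sham. Mcm5 had 11.1, 7.98 and 8.93 CPM in I/R and 5.56, 6.4 and 4.71 CPM in sham. Mcm7 had 29.9, 20 and 22.5 CPM in I/R and 13.5, 14.8 and 13.2 CPM in sham. They rose by log2 fold changes of 0.76, 0.75 and 0.80. Of the 50-base stretches of the Mcm7 transcripts in GENCODE, 23.3% also occur in transcripts of other genes, mainly Gm5487. The call of Mcm5 (edgeR adjusted p of 0.0149) was lost without sham replicate 1 or sham replicate 3 (edgeR adjusted p of 0.0519 and 0.0633).

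Mcm6 was the subunit that did not pass. Mcm6 (chromosome 1, 127041346 to 127071059) had 20.1, 17.2 and 12.8 CPM in I/R and 15.4, 16.4 and 16.6 CPM in sham, so that the I/R libraries lay on both sides of sham. Its log2 fold change was 0.05 with a 95% interval of -0.33 to 0.44, and with library size only it was 0.32 and still not called (edgeR adjusted p of 0.199). Without I/R replicate 1 it turned to -0.11. Per length, Mcm6 made up 14.7%, 17% and 13.1% of the summed MCM FPKM in I/R against 23.1%, 23.7% and 25.4% in sham. Mcm3 made up 10.5%, 9.6% and 10.1% in I/R against 5.64%, 6.51% and 5.11% in sham. Of the 6 shares, these 2 did not overlap between groups (exact two-sided permutation p of 0.1 each, the smallest possible), and the other 4 did (exact p of 0.2 to 1). By the length column Mcm6 made up 11.6% to 15.3% in I/R against 20.4% to 23% in sham, and Mcm3 9.12% to 9.9% against 4.9% to 6.06%. These shares also add up to the whole, so a lower share of Mcm6 does not by itself show a fall of Mcm6.

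Pcna, the sliding clamp of DNA polymerases, which also serves repair synthesis, was the most abundant replication gene per length (chromosome 2, 130700002 to 130704154). It had 93.3, 102 and 105 CPM in I/R and 59.2, 60 and 64 CPM in sham. I/R replicate 1 was the lowest of its I/R libraries, unlike in most other members that rose, and the groups were well apart. The log2 fold change of Pcna was 0.71 ± 0.08 (SE, adjusted p 0.000839, edgeR). Of its 50-base stretches in GENCODE transcripts, 19.1% also occur in another transcript, mainly the pseudogene Pcna-ps2, so part of its count is uncertain. The subunits of ribonucleotide reductase, which makes deoxynucleotides, gave no call: Rrm1 had 21.2 to 24.9 CPM in I/R and 20.1 to 21.1 CPM in sham. Rrm2, the subunit tied to S phase, had 1.47, 0.8 and 1.7 CPM in I/R and 1.26, 1.82 and 1.98 CPM in sham. E2f1, the activating factor of this gene class, had 4.66, 5.75 and 6.6 CPM in I/R and 7.53, 6.91 and 7.35 CPM in sham, lower in every I/R library but not called (edgeR adjusted p of 0.135).

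**Figure D3:**
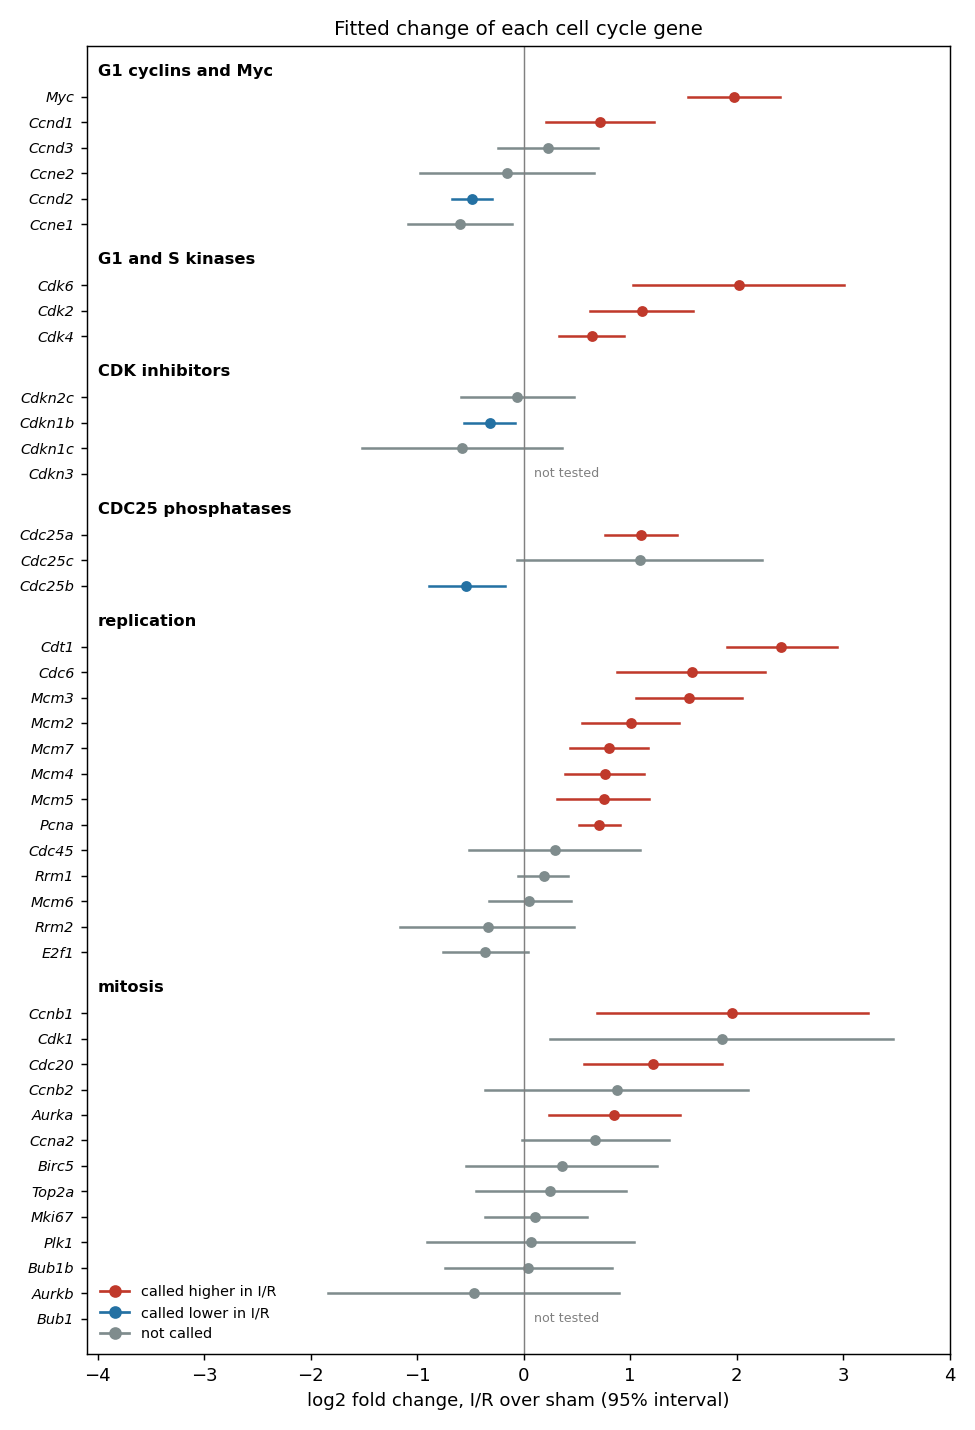
Fitted log2 fold change of I/R over sham for each cell cycle gene with its 95% interval, by role; red is called higher, blue called lower and grey not called, and Cdkn3 and Bub1 were not tested. Replication genes are mostly to the right of 0 with narrow intervals, while most mitosis genes have wide intervals that include 0.

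The mitosis genes were low, with a median sham level of 0.322 FPKM beside 2.39 FPKM for the replication genes (0.271 and 1.59 by the length column). Mki67, the nuclear antigen Ki-67 of cycling cells (chromosome 7, 136380033 to 136406667), had 2.75, 3.48 and 3.2 CPM in I/R and 3.25, 2.61 and 2.85 CPM in sham. The libraries of both groups were interleaved, and the log2 fold change of 0.11 had a 95% interval of -0.36 to 0.59. Top2a, the topoisomerase that untangles sister chromatids, had 2.48, 1.63 and 1.4 CPM in I/R and 1.84, 1.3 and 1.48 CPM in sham. Its groups overlapped, with a 95% interval of -0.45 to 0.96, and without I/R replicate 1 its log2 fold change turned from 0.25 to -0.03.

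The mitosis genes that rose were Ccnb1, Cdc20 and Aurka. Cdc20, which activates the anaphase-promoting complex, had 2.59, 2.78 and 1.83 CPM in I/R and 0.922, 0.96 and 1.22 CPM in sham, a log2 change of 1.21 (SE 0.28 and adjusted p 0.0102, edgeR). Aurka, a kinase of the spindle poles, had 3.12, 3.78 and 3.25 CPM in I/R and 1.31, 2.39 and 1.92 CPM in sham, a log2 change of 0.85 (SE 0.27 and adjusted p 0.034, edgeR). Ccnb1, the cyclin of CDK1 (chromosome 13, 99454180 to 99461944), had counts of 14, 22 and 12 after I/R, against 4, 3 and 4 in sham. None of the 3 genes overlapped between groups. The log2 fold change of Ccnb1 was 1.96 (SE 0.55 and adjusted p 0.0229, edgeR), on few counts, and 23.4% of its 50-base stretches also occur in other transcripts, mainly Ccnb1-ps. For Cdc20 the shared part was 10.6%, mainly with Gm7856.

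Cdc20 kept its call in every alternative, and the other 2 did not. Aurka lost it without I/R replicate 2 or 3 or sham replicate 1 or 3 (edgeR adjusted p of 0.0646 to 0.106). Ccnb1 lost it without I/R replicate 2 or without any single sham library (edgeR adjusted p of 0.0657 to 0.0937). Cdk1, the mitotic kinase itself, had counts of 37, 16 and 20 after I/R, against 12, 5 and 1 in sham. Its groups did not overlap, but the log2 fold change of 1.86 (SE 0.70) was not called (edgeR adjusted p of 0.0633), and without sham replicate 1 it was 2.81 and called (edgeR adjusted p of 0.036). Cdk1 was also called with library size only (edgeR adjusted p of 0.0404) and with DESeq2's Wald test (adjusted p of 0.0442). Ccna2, the cyclin of S phase and G2, had 1.45, 1.85 and 1.23 CPM in I/R and 1.1, 0.812 and 0.93 CPM in sham, with no overlap and no call (edgeR adjusted p of 0.108). Ccnb2 (a B-type cyclin), Bub1 and Bub1b (kinetochore checkpoint kinases), Birc5 (survivin), Aurkb and Plk1 (mitotic kinases) also overlapped between groups, and the highest count of Bub1 in any library was 10.

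Further genes of the pathway were counted from 3 lists. Of 26 other G1 regulators tested (of 28 listed), 7 were higher and 7 lower (26.9% each, beside 21.8% and 19.9% of all genes), with a median log2 fold change of 0.08. The largest change was that of Cdkn1a, which encodes the CDK inhibitor p21 and is a target of p53: its counts were 18478, 10240 and 9480 after I/R, against 1034, 839 and 844 in sham. Its groups were far apart, with a log2 change of 3.65 (SE 0.23 and adjusted p 0.000212, edgeR). Btg2, an antiproliferative gene, Cks1b, a subunit that binds CDKs, and Ccng1, another p53 target, rose by log2 fold changes of 1.49, 1.18 and 1.13. The relatives of Myc fell, with log2 fold changes of -0.80 for Mycn and -0.90 for Mycl (edgeR adjusted p of 0.00553 and 0.0283); these 2 were chosen after their values were seen. Per length, Myc made up 61.3%, 37.7% and 37.8% of the summed FPKM of the 3 Myc genes in I/R against 10.1%, 11.3% and 8.87% in sham. By the length column it made up 45.7% to 67.8% in I/R against 12% to 15.1% in sham. The share was chosen after the values were seen, and its exact two-sided permutation p was 0.1, the smallest possible. Such shares add up to the whole, so a higher share of Myc does not by itself show a fall of Mycn or Mycl.

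Of 33 other replication genes tested (of 35 listed), 13 were higher (39.4%, beside 21.8% of all genes) and 1, Dut, was lower. The histone chaperone subunit Chaf1b, the maintenance methylation factor Uhrf1, the initiation factor Mcm10 and thymidine kinase Tk1 rose by log2 fold changes of 1.99, 1.92, 1.52 and 1.45. Of 39 other mitosis genes tested (of 43 listed), 8 were higher (20.5%, near the share of all genes) and 2, Fzr1 and Wee1, were lower. The kinetochore subunit Spc25, the spindle pole gene Aspm, the separase Espl1 and the chromosome kinesin Kif4 rose by log2 fold changes of 1.16 (Kif4) to 2.11 (Spc25). The medians were 0.32 for the other replication genes and 0.31 for the other mitosis genes, beside 0.03 for all genes. Without the 2 libraries with little Ttr, the calls over the 3 lists went from 28 higher and 10 lower to 13 and 5, while those over all genes went from 7756 to 5255. With Ttr as a covariate and all 6 libraries kept, the lists had 24 higher and 10 lower.

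In the RefSeq windows, from 250 bases before to 50 after the start, 33 of the 42 genes could be examined. Ccnd1, Ccnd2, Ccne2, Myc, Cdkn1c, Cdc25c, Mcm4, Ccna2 and Aurkb had no window. E2F letters (TTTCCCGC, TTTGGCGC, TTTCGCGC or TTTGCCGC, both strands, matches may overlap each other) were in 6 of 12 replication genes and 1 of 11 mitosis genes (Cdk1), against 2.6% of 27025 genes. CHR letters (TTTGAA or TTCGAA, both strands) were in 9 of 11 mitosis genes and 3 of 12 replication genes, against 21.7% of all genes. The CAAT box (CCAAT, both strands) was in 26 of 33 members, against 41.1% of all genes. The E-box (CACGTG, a palindrome, bound by Myc and other factors) was in Cdk4, Cdk6 and Cdkn2c, 3 of 33 members, against 8.09% of all genes.

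The letters were present in genes that rose and in genes that were not called. Of the 6 replication genes with E2F letters, 5 were higher and Mcm6 was not called, and of the 7 replication genes with a window that were higher, Mcm2 and Pcna had no E2F letters. Of the 9 mitosis genes with CHR letters, 2 (Cdc20 and Aurka) were higher, 6 were not called and Bub1 was not tested. No test was run on these counts, and GRCm38.p6 is not the build of the counted table.

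**Figure D4:**
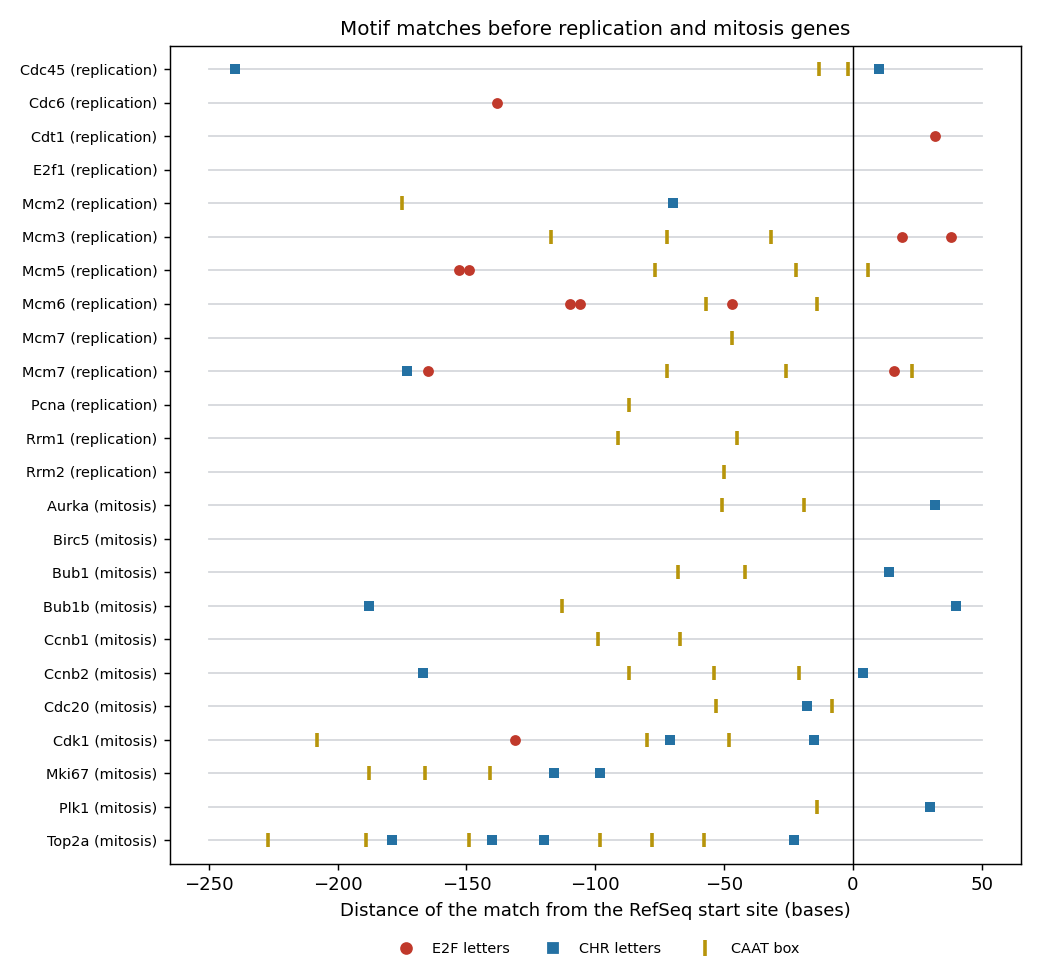
Positions of the searched motifs in the windows of the replication and mitosis genes, in bases from the RefSeq start site (x axis), with red circles for E2F letters, blue squares for CHR letters and yellow ticks for the CAAT box; Mcm7 has a pair of start sites. E2F letters are found mostly in replication genes and CHR letters mostly in mitosis genes.

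Markers of some cell types rose after I/R and those of others fell or overlapped between groups. For the marker counts in this and the following paragraphs, 21.8% of all genes tested were higher and 19.9% were lower. The lists are short, and none was tested against these shares. In bulk tissue a change in the number of cells of a type and a change in RNA per cell cannot be told apart. Microglia markers summed to 396 to 560 CPM in I/R and 284 to 321 CPM in sham, with 5 of 8 higher, Aif1 among them (log2 fold change 0.76), and 2 lower. Macrophage and monocyte markers summed to 106 to 239 CPM against 13.4 to 15.7 CPM, with 5 of 6 higher, Ccr2 among them (3.27) and Cd14 the largest change (5.13). Neutrophil markers summed to 6.33 to 32.2 CPM against 0.233 to 1.56 CPM, with all 4 of 6 that could be tested higher, S100a8 among them (4.66), whereas Ly6g, which defines the type, had counts of 1, 0 and 0 after I/R and 0 in every sham library. With a sum of 0.233 CPM in sham replicate 3, no neutrophil marker could pass the count filter through the sham libraries alone. The 4 tested were thus kept through high I/R libraries, so their being higher is no independent result. Their fold changes rest on very low sham levels. Endothelial markers summed to 318 to 532 CPM against 192 to 194 CPM, with 6 of 6 higher, Pecam1 among them (1.92). I/R replicate 1 had the highest sum of these 4 lists, and it was the highest library in 12 of the 17 cell cycle genes that rose. How often it was highest among all genes that rose was not counted, so this cannot be read as particular to cell cycle genes. The part of these cell types in the result was not tested.

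Markers of neural progenitors and immature neurons, a list not limited to dividing cells, gave no common direction. They summed to 265 to 441 CPM in I/R and 178 to 186 CPM in sham. However, 2 of 10 were higher (Nes and Sox11), 3 were lower (Hes5, Neurog2 and Tbr1), and Sox2 was not called (log2 fold change 0.22). Nes, an intermediate filament of progenitors that reactive astrocytes and endothelium also make, had counts of 13119, 4652 and 4014 after I/R, against 502, 549 and 416 in sham. Markers of oligodendrocyte precursors, a dividing population, summed to 248 to 267 CPM against 337 to 378 CPM, with 1 of 6 higher and 3 lower, and Pdgfra, which defines them, was not called (log2 fold change -0.05).

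Of the other cell types, pericyte and fibroblast markers summed to 218 to 291 CPM in I/R and 188 to 201 CPM in sham, with 4 of 6 higher, Pdgfrb among them (log2 fold change 0.69), and 1 lower. Astrocyte markers summed to 4282 to 4557 CPM against 4310 to 4659 CPM, with 2 of 6 higher, led by Gfap (2.31), and 3 lower. Oligodendrocyte markers summed to 4783 to 5380 CPM against 6053 to 7511 CPM, with 3 of 6 lower and 0 higher by edgeR (1 higher at an unadjusted p under 0.05 and 1 with DESeq2's Wald test), and Mbp was not called (-0.39). Dentate granule cell markers summed to 138 to 274 CPM against 510 to 557 CPM, with 6 of 6 lower, Prox1 among them (-0.77). Pyramidal cell and neuron markers summed to 373 to 661 CPM against 1071 to 1146 CPM, with 3 of 5 lower, Rbfox3 among them (-0.75). Choroid plexus markers summed to 34 to 3620 CPM against 36.7 to 4438 CPM, with 0 of 7 called by edgeR (0 also at an unadjusted p under 0.05 and with DESeq2's Wald test), and T and B cell markers, of which 1 of 5 could be tested, to 0.375 to 0.575 CPM against 0.262 to 0.64 CPM.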

How the data were processed

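Hippocampal RNA-seq was deposited as 1 table of 6 libraries, grouped by sample titles. The authors aligned reads with TopHat2 and counted reads per gene with HTSeq, and the table gives these raw counts per gene. The deposited FPKM values are the authors' counts per counted library total and per kilobase of a gene length that is the table's length column for some genes and shorter for others; how that length was set is not given in the sources used here. The submitters' processing notes name Bowtie 0.12.2 and mm8, while the table's identifiers and coordinates are those of Ensembl's BALB/cJ annotation although the mice were C57BL/6 (C57BL/6J in the methods); strand use in counting is not given in the sources used here. The table also holds the authors' own fold changes, p-values, adjusted p-values and calls, and 4 group mean columns, none of them used.

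Split lines (4) were rejoined. Unnamed genes (11253, 4.24% to 4.74% of counts) have identifiers and stayed in the tests. The test was edgeR 4.0.16 under R 4.3.3 (filterByExpr, TMM, glmQLFit with robust estimation, glmQLFTest, no covariates), with Benjamini-Hochberg adjustment. The SE is the log2 fold change divided by the square root of F. The method was tested on simulated counts. Alternatives used DESeq2 1.42.0 size factors or its Wald test, library size only, no count filter, a replicate block, log2 CPM of Ttr as a covariate, each library left out in turn, both libraries with little Ttr left out, and other call rules. Total counts of 37493042 to 44788547 per library limit precision for the rarest genes, and intervals do not account for PCR copies.

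The members, pathway lists, marker lists and alternatives were chosen with earlier results of these data known. Members called, and Ccnd1, Ccnd2, Ccnd3, Myc, Mki67, Top2a, Cdk1, Pcna, Mcm2, Cdkn1b and Cdkn1c, are given by library. From each further pathway list up to 4 genes are named, with the largest log2 fold change among those called with a mean count of at least 30 in 1 group. From each marker list the marker written first is named, and any further marker or pathway gene was named after its values were seen.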

Additional observations from a re-analysis of the deposited data

How the results depend on the processing

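Of the 17 cell cycle genes called higher, 13 were called higher under all 13 alternative fits (Myc, Cdk2, Cdk4, Cdk6, Cdc25a, Cdc6, Cdt1, Mcm2, Mcm3, Mcm4, Mcm7, Pcna and Cdc20), and each of the 3 called lower lost its call under at least 1. No called member changed direction. Scaling by library size only left 0 members lower, 5 mitosis genes higher and 3 further pathway genes lower, in place of 3, 3 and 10. Without a count filter 1 G1 gene (Myc) was higher in place of 2. Without both libraries with little Ttr, 1 member was lower, 1 mitosis gene was higher, and 13 and 5 further pathway genes were higher and lower, in place of 28 and 10. Over all genes, 5255 were called in that fit in place of 7756. With Ttr as a covariate, 7283 genes, 17 members higher and 3 lower, and 24 further pathway genes higher and 10 lower were called. With a fold change over 2, 2760 of 7756 genes, 10 members higher and 0 lower, 1 G1 gene, 4 replication genes, and 18 further pathway genes higher and 0 lower were called. Leaving out each library in turn gave 5330 to 7976 genes, 13 to 17 members higher and 1 to 4 lower, 1 to 2 G1 genes, 7 to 8 replication genes and 1 to 3 mitosis genes higher, and 19 to 29 further pathway genes higher and 6 to 10 lower.

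The replicate numbers are not said to pair the libraries. After each gene's group mean was subtracted, the correlations of same-numbered I/R and sham libraries were -0.0967, 0.0556 and -0.184. Those of differently numbered libraries were -0.171 to 0.267. With 3 libraries per group, such deviations cannot show whether libraries were paired. With a replicate block 6332 genes, 16 members higher and 1 lower (Ccnd2) were called, and Cdkn1b, Cdc25b and Ccnb1 had an edgeR adjusted p of 0.0934, 0.0657 and 0.0645. Changes of direction were all in genes not called. With library size only, Ccne2 was 0.08 and Cdkn2c 0.20 (log2 fold change). With each library left out in turn, the lowest and highest values were -0.43 and 0.10 for Ccne2, -0.21 and 0.07 for Cdkn2c, 0.00 and 0.54 for Cdc45, -0.11 and 0.18 for Mcm6, -0.03 and 0.39 for Top2a, -0.24 and 0.27 for Bub1b, and -0.25 and 0.28 for Plk1. Without both libraries with little Ttr, Cdkn2c was 0.03. The cause of these changes was not tested. Dividing counts by the length column in place of using the deposited FPKM changed no overlap between groups among the shares of D-type cyclins, Myc genes, MCM subunits and CDC25 genes. Depth limits the mitosis genes most, since 10 of 13 had a mean count under 100.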
